A study of Komagataella phaffii GS115 with 6 samples.

Results

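The genes described here are 5 genes of arginine and allantoin use in Komagataella phaffii GS115, a laboratory strain of the methanol-using yeast long known as Pichia pastoris. They are the arginase gene CAR1 (PAS_chr2-2_0288), another arginase gene with the same symbol, CAR1 (PAS_chr4_0684), the ornithine transaminase gene CAR2 (PAS_chr3_0410), CPA1 (PAS_chr4_0138), which encodes the small subunit of carbamoyl phosphate synthetase, and the allantoinase gene DAL1 (PAS_chr1-3_0023). They are 5 of the 115 genes of the table analysed here, and all 5 passed the filter of a mean FPKM of at least 1, as did 112 of the 115. The libraries were made from wild-type yeast cells grown in BMMY with 1% maltose (3 libraries) or in BMMY alone (3 libraries), in both cases sampled at 48 h. BMMY is a buffered rich medium in which methanol serves as the carbon source, so methanol was present in both groups. The series concerns the output of recombinant collagen with maltose. The labels do not say whether the cells carried a collagen construct, nor whether the 3 libraries of a medium came from separate cultures, so the spread between them may be technical.

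Arginase splits arginine into ornithine and urea, and ornithine transaminase turns the ornithine into the semialdehyde of glutamate, which is on the way to proline and glutamate. Allantoinase opens the ring of allantoin, a product of purine breakdown, and so starts another route by which a yeast recovers nitrogen. Carbamoyl phosphate synthetase works in the opposite direction, since its product feeds arginine synthesis. In Saccharomyces cerevisiae the CAR genes are induced by arginine through a complex that contains Arg81, the allantoin genes are held down by preferred nitrogen sources, and CPA1 is repressed by arginine.

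The genes were chosen from values of the same contrast that is described here. Every gene in the authors' deposited table changed by 1.0 or more on their log2 scale, 56 upward and 59 downward, and the 5 genes were then selected from that table by their annotation with their changes known. Fold changes below are therefore a description of these 6 libraries, given with standard errors and no p-value. Where calls of the fit across all genes are counted, they are set beside the share called over all genes and are no test of these genes. Nearest to that limit among the members, by the authors' deposited table, were CPA1, at 1.16, and DAL1, at -1.20. Genes under the limit of 1.0 were not analysed here.

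FPKM, the unit used for levels, is the count divided by the gene's length and by the library's depth. It measures a share of the sequenced RNA, so that a lower value and a smaller share beside other, more abundant transcripts cannot be told apart. The depths implied by count, FPKM and gene length were 35.3 to 55.3 M fragments in the maltose libraries and 53.2 to 76.1 M in the BMMY libraries. All 115 listed genes took 14.9% to 15.3% of that depth with maltose and 6.83% to 10.1% in BMMY, and the 5 genes took 0.0498% to 0.0623% with maltose and 0.25% to 0.347% in BMMY. Within its group, BMMY replicate 1 was the highest library in 70 of 112 genes (62.5%), and maltose replicate 3 in 67 of 112 (59.8%). Of the 56 genes with a positive log2 ratio, BMMY replicate 1 was highest in 83.9%, and maltose replicate 3 in 48.2%. Of the 56 with a negative ratio, BMMY replicate 1 was highest in 41.1% and lowest in 42.9%, and maltose replicate 3 was highest in 71.4%. Values without these libraries stand beside the results below.

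With maltose, the transcripts of both arginase genes, CAR2 and DAL1 were lower and that of CPA1 was higher. The arginase gene PAS_chr2-2_0288 was 16.5-fold lower, CAR2 was 5.54-fold lower, the arginase gene PAS_chr4_0684 was 5.23-fold lower and DAL1 was 2.93-fold lower, while CPA1 was 1.75-fold higher. The call for CPA1 was lost with TMM factors and when any of 3 of the libraries was left out singly, and its log2 fold change was -0.0245 with equal FPKM sums. The call was kept with median-of-ratios size factors and with the scaling recovered from the authors' fold changes. In edgeR's quasi-likelihood fit with Benjamini-Hochberg adjustment, 4 of the 5 genes were called lower, where 50.0% of the 112 genes tested were, and 1 of the 5 was called higher, where 43.8% were. The libraries of the media did not overlap for 5 of the 5 genes, as for 94.6% of the genes tested. These shares follow from the selection of the table, and nothing is read from them about the 5 genes. Their median log2 fold change was -2.39. The median over all genes tested, -0.35, falls in the gap that the selection left around 0. It is no typical value, and nothing is read from the difference.

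**Figure D1:**
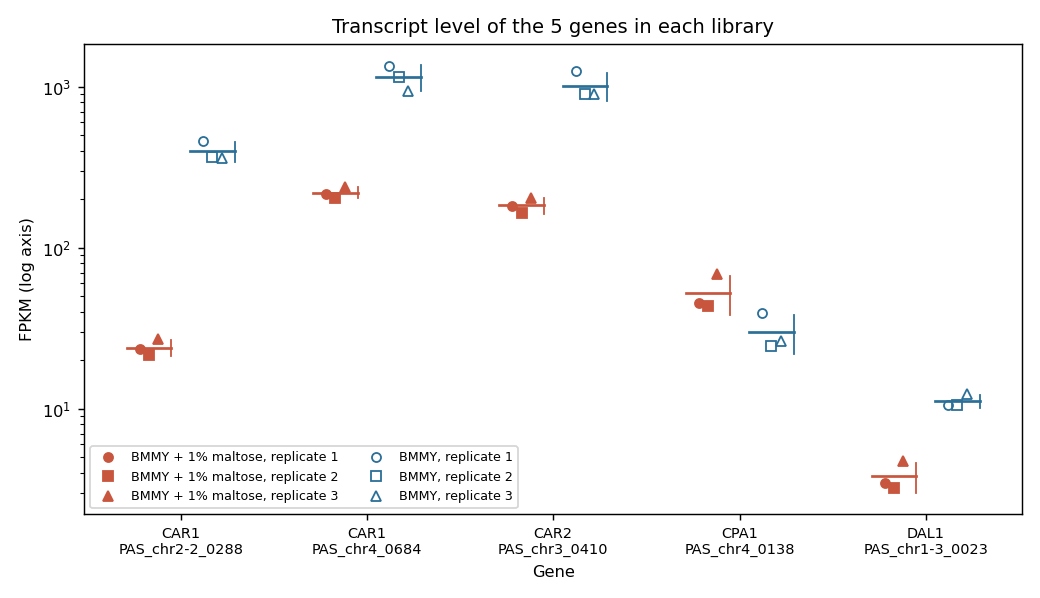
Transcript level in FPKM (log axis) of the 5 genes in each library, with maltose (filled, left) and in BMMY (open, right); horizontal lines are means and vertical lines SDs of 3 libraries. The 3 maltose libraries lie below the 3 BMMY libraries for both arginase genes, CAR2 and DAL1, and above them for CPA1.

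The arginase gene PAS_chr2-2_0288 had 23.4, 21.5 and 27.1 FPKM in maltose replicates 1, 2 and 3, against 460.4, 366 and 360.2 FPKM in BMMY replicates 1, 2 and 3. The groups were far apart: the lowest BMMY library was 13.3-fold above the highest maltose library. The means were 24.0 ± 2.83 FPKM with maltose and 396 ± 56.2 FPKM in BMMY (SD, n = 3 each), a log2 fold change of -4.04 (SE 0.22). On the scale of FPKM ratios this was the lowest of the 112 values, and it was also the lowest of 115 in the authors' deposited table, at -3.68. Behind these values stood 940 to 1273 reads per maltose library and 18959 to 27414 reads per BMMY library. Without BMMY replicate 1 the log2 fold change was -3.92 (SE 0.16), and without maltose replicate 3 it was -4.14 (SE 0.26).

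The arginase gene PAS_chr4_0684 was the more abundant of the pair in every library. It had 216, 205 and 238 FPKM in maltose replicates 1, 2 and 3, against 1352, 1155 and 940.3 FPKM in BMMY replicates 1, 2 and 3. All maltose libraries were below all BMMY libraries, with the nearest libraries 3.95-fold apart. The means were 220 ± 16.9 FPKM with maltose and 1149 ± 205.9 FPKM in BMMY (SD, n = 3 each), a log2 fold change of -2.39 (SE 0.20). It was -2.25 (SE 0.13) without BMMY replicate 1 and -2.45 (SE 0.25) without maltose replicate 3. In rank of mean level it stood 39th of 112 with maltose and 13th in BMMY, and the log2 ratio was the 12th lowest.

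Both arginase genes carry the same Swiss-Prot match, the arginase of Ashbya gossypii, and their RefSeq gene lengths, 984 bases for PAS_chr2-2_0288 and 981 bases for PAS_chr4_0684, are nearly equal. The deposited pathway annotation places PAS_chr4_0684 in arginine biosynthesis and in arginine and proline metabolism, and gives no pathway for PAS_chr2-2_0288. Their proportion differed between the media. The FPKM of PAS_chr4_0684 divided by that of PAS_chr2-2_0288 was 9.23, 9.53 and 8.79 in maltose replicates 1, 2 and 3, against 2.94, 3.15 and 2.61 in BMMY replicates 1, 2 and 3. The gene PAS_chr2-2_0288 thus held 9.5% to 10.2% of the summed arginase FPKM with maltose and 24.1% to 27.7% in BMMY. A ratio taken within a library does not change with the scaling between libraries. Sharing of reads by the pair of arginase genes was not tested, and how reads with several matches were counted is unknown here. The sum of both genes was 244 ± 19.7 FPKM with maltose and 1545 ± 256.7 FPKM in BMMY (SD, n = 3 each).

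CAR2, the step after arginase, had 180.2, 164 and 204 FPKM in maltose replicates 1, 2 and 3, against 1242, 903 and 894 FPKM in BMMY replicates 1, 2 and 3. The groups were separate again, with the nearest libraries 4.38-fold apart, and BMMY replicate 1 stood above the other BMMY libraries. The means were 183 ± 20.1 FPKM with maltose and 1013 ± 198.2 FPKM in BMMY (SD, n = 3 each), a log2 fold change of -2.47 (SE 0.21). It was -2.30 (SE 0.12) without BMMY replicate 1 and -2.56 (SE 0.25) without maltose replicate 3. The fold change of CAR2 was close to that of the arginase gene PAS_chr4_0684. The ratio of their FPKM was 0.835, 0.802 and 0.858 in maltose replicates 1, 2 and 3. In BMMY replicates 1, 2 and 3 it was 0.919, 0.782 and 0.951. These ratios overlapped between the media. Against the arginase gene PAS_chr2-2_0288 the ratio was also steady within a medium but not between media, at 7.54 to 7.7 with maltose and 2.47 to 2.7 in BMMY. Against the summed arginase FPKM it was 0.726 to 0.77 with maltose and 0.593 to 0.688 in BMMY, without overlap.

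**Figure D2:**
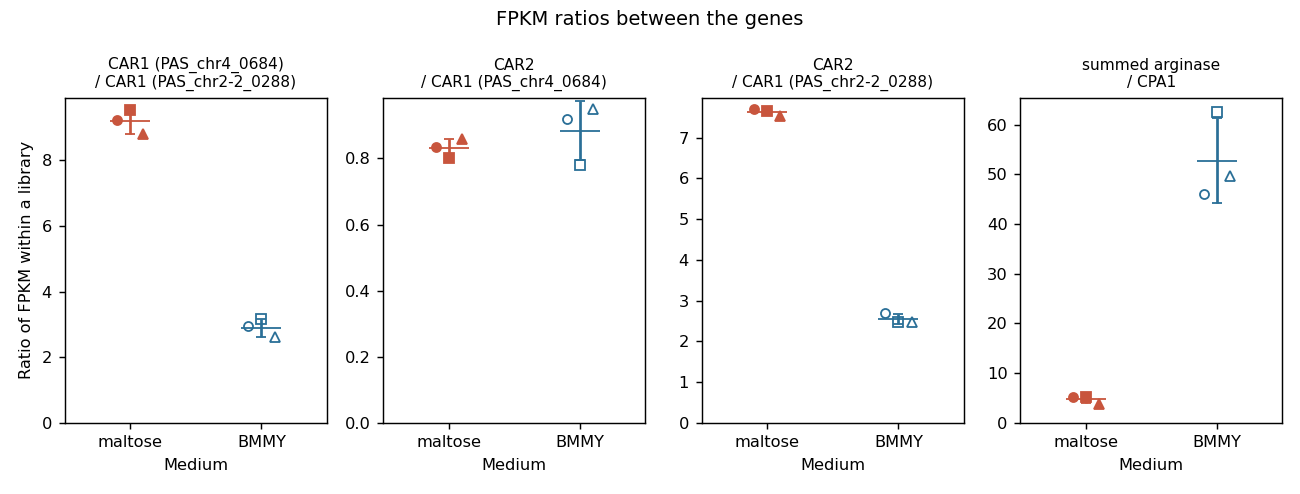
Ratios of FPKM between genes within each library (linear axes from 0), with maltose (filled, left) and in BMMY (open, right); lines and bars are mean and SD of 3 libraries, and circles, squares and triangles are replicates 1, 2 and 3. The ratio of CAR2 to CAR1 (PAS_chr4_0684) overlaps between media, while the other 3 ratios do not.

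DAL1, the allantoinase gene, was the least abundant of the 5. It had 3.48, 3.22 and 4.75 FPKM in maltose replicates 1, 2 and 3, against 10.6, 10.6 and 12.4 FPKM in BMMY replicates 1, 2 and 3. The groups did not overlap, and here replicate 3 was the highest library in both media. The means were 3.82 ± 0.82 FPKM with maltose and 11.2 ± 1.05 FPKM in BMMY (SD, n = 3 each), a log2 fold change of -1.55 (SE 0.20). It was -1.59 (SE 0.21) without BMMY replicate 1, and -1.74 (SE 0.18) without maltose replicate 3. The counts were 292 to 383 reads per maltose library and 1117 to 1596 reads per BMMY library, the lowest of the 5 genes in every library.

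CPA1 differed from the others in direction. It had 45.5, 43.3 and 68.9 FPKM in maltose replicates 1, 2 and 3, against 39.3, 24.4 and 26.2 FPKM in BMMY replicates 1, 2 and 3. The groups did not overlap, but the lowest maltose library was only 1.1-fold above the highest BMMY library, and in each group a single library, maltose replicate 3 and BMMY replicate 1, stood above the other two. The means were 52.5 ± 14.2 FPKM with maltose and 29.95 ± 8.15 FPKM in BMMY (SD, n = 3 each), a log2 fold change of 0.81 (SE 0.27). It was 1.06 (SE 0.21) without BMMY replicate 1, 0.57 (SE 0.25) without maltose replicate 3 and 0.81 (SE 0.14) without both. Leaving out both was added after the data were seen. It takes away the highest library of each group, which by itself narrows the spread and the standard error. The call as higher was lost when maltose replicate 3, BMMY replicate 2 (log2 fold change 0.68) or BMMY replicate 3 (0.72) was left out. It was also lost with TMM factors (0.34), and the value was -0.0245 when the FPKM of the listed genes were scaled to equal sums. The call was kept with median-of-ratios size factors (1.13) and with the scaling recovered from the authors' fold changes (1.16). TMM and median-of-ratios factors were computed from the listed genes only, which were selected for change.

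Relative to the arginase genes, CPA1 took a different place in each medium, whatever the scaling. The summed arginase FPKM were 5.26, 5.23 and 3.85 times those of CPA1 in maltose replicates 1, 2 and 3, against 46.1, 62.4 and 49.7 times in BMMY replicates 1, 2 and 3. CPA1 was above the arginase gene PAS_chr2-2_0288 in each maltose library and below it in each BMMY library. In mean FPKM, which is per length, the order with maltose was CAR1 (PAS_chr4_0684), CAR2, CPA1, CAR1 (PAS_chr2-2_0288) and DAL1. In BMMY it was CAR1 (PAS_chr4_0684), CAR2, CAR1 (PAS_chr2-2_0288), CPA1 and DAL1. Of neighbours in these orders, the levels of PAS_chr4_0684 and CAR2 overlapped in BMMY. With maltose the same pair met at 205 FPKM, the lowest library of PAS_chr4_0684, and 204 FPKM, the highest of CAR2. The other neighbours were separate in all libraries of a medium.

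The spread between libraries was wider than counting error for each of the 5 genes. The coefficient of variation of FPKM was 7.7% to 27.0% over the maltose libraries and 9.41% to 27.2% over the BMMY libraries. Counting error alone was at most 5.85% with maltose and 2.99% in BMMY, taken as the reciprocal square root of the lowest count in the group and covering counting error only. CPA1 had the widest relative spread of the 5 in both media. In the maltose group, replicate 2 was the lowest and replicate 3 the highest library for 5 of the 5 genes, an order shared by 32 of the 112 genes tested (28.6%) and by 23 of the 56 genes with a negative log2 ratio (41.1%). Maltose replicate 3 also had the lowest implied depth, and the part of depth in this order was not tested.

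**Figure D3:**
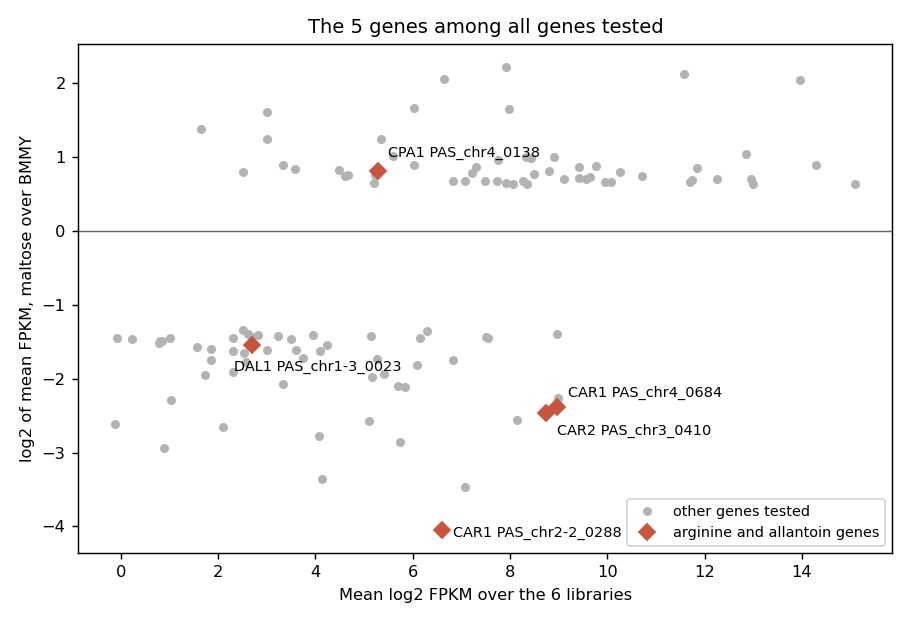
The log2 ratio of mean FPKM, maltose over BMMY, against mean log2 FPKM over the 6 libraries, for the 112 genes tested; diamonds are the 5 genes and grey points the others. CAR1 (PAS_chr2-2_0288) has the lowest ratio of all, CAR1 (PAS_chr4_0684) and CAR2 lie side by side, and no gene lies near 0 because the table was selected for change.

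The likeness of patterns was measured as the root-mean-square distance between gene-centred log2 FPKM over the 6 libraries, in which the difference between media weighs most. CAR2 and the arginase gene PAS_chr4_0684 were each other's nearest gene of the 111 others, at 0.10. Their median distances to all other genes were 1.56 and 1.51. The selection shaped these medians, since it left no gene near 0 and 56 of the 112 genes had a positive log2 ratio. They are no typical distance, and nothing is read from the difference. After CAR2, the gene nearest to PAS_chr4_0684 was MXR1, a peptide methionine sulfoxide reductase, at 0.19, and after PAS_chr4_0684 the gene nearest to CAR2 was PAS_chr1-4_0681 (dmoA, annotated by similarity as a dimethyl sulfide monooxygenase), at 0.21. The arginase gene PAS_chr2-2_0288 had no gene as close: the nearest were PUT1 at 0.36 and PUT4 at 0.37, and the distance to PAS_chr4_0684 was 0.84. This gene had the lowest log2 ratio of the genes tested, and PUT1 (-3.47) and PUT4 (-3.36) had the next lowest. These distances therefore follow largely from the size of the difference between media. DAL1 was nearest to YPS1, a cell surface aspartic protease, at 0.08 and to the gene of the NAD-dependent glutamate dehydrogenase (gdh-1, PAS_chr2-1_0311) at 0.10. CPA1 was nearest to EBP1, an NADPH oxidoreductase, at 0.09 and to ALD5, a mitochondrial aldehyde dehydrogenase, at 0.10.

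A list of arginine, urea, allantoin, proline, glutamate and ammonium genes found 5 further genes in the table. By edgeR's fit, 4 of these 5 were called lower and 1 higher, with a median log2 fold change of -1.75. The median over all genes tested, -0.35, lies in the gap left by the selection and is no reference for it. Since 50.0% of the genes tested were called lower and 43.8% higher, in a table selected for change, nothing is read from the count of calls. The genes for other steps, such as the remaining enzymes of arginine synthesis, urea breakdown and allantoate breakdown, were not analysed here.

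The regulator gene ARG81 (PAS_chr3_0490), whose product in Saccharomyces cerevisiae senses arginine and takes part in the control of both CAR and arginine synthesis genes, was lower with maltose. It had 2.68, 2.74 and 3.02 FPKM in maltose replicates 1, 2 and 3, against 7.65, 9.54 and 8.93 FPKM in BMMY replicates 1, 2 and 3. The groups did not overlap, and the log2 fold change was -1.63 (SE 0.17). It was -1.72 without BMMY replicate 1 and -1.68 without maltose replicate 3. The main value stood between those of DAL1 and the arginase gene PAS_chr4_0684.

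Downstream of ornithine, the proline oxidase gene PUT1 (PAS_chr1-3_0269) had a log2 fold change of -3.47 (SE 0.21), which was -3.56 without BMMY replicate 1 and also -3.56 without maltose replicate 3. PUT2 (PAS_chr2-2_0496), annotated as the mitochondrial dehydrogenase that turns pyrroline carboxylate, the product of both CAR2 and PUT1, into glutamate, had 54.7, 56.1 and 78.1 FPKM in maltose replicates 1, 2 and 3, against 268, 189 and 178 FPKM in BMMY replicates 1, 2 and 3. As for CAR2, the highest libraries were maltose replicate 3 and BMMY replicate 1. Its log2 fold change was -1.75 (SE 0.25), and it was -1.54 without BMMY replicate 1 and -1.93 without maltose replicate 3. The gene gdh-1, whose enzyme releases ammonium from glutamate, had 7.44 ± 1.37 FPKM with maltose and 24.6 ± 1.8 FPKM in BMMY (SD, n = 3 each), a log2 fold change of -1.72 (SE 0.20). It was -1.77 without BMMY replicate 1 and -1.87 without maltose replicate 3. This gene was not on the list and is given because it was among the genes nearest to DAL1 in pattern, which favours a change like that of DAL1.

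The transporters on the list went both ways. PUT4 (PAS_chr2-1_0659), a proline permease, had a log2 fold change of -3.36 (SE 0.29), which was -3.27 without BMMY replicate 1 and -3.67 without maltose replicate 3. GAP1 (PAS_chr1-1_0030), a permease of broad amino acid range that also carries arginine, had a log2 fold change of 0.67 (SE 0.21), and 0.71 without BMMY replicate 1. As with CPA1, the call for GAP1 rested on single libraries and on the scaling: it was not called without maltose replicate 3 (0.49) or BMMY replicate 2 (0.59) or with TMM factors (0.17), and with equal FPKM sums it was at -0.20. GAP1 stayed called with median-of-ratios size factors (0.98) and with the scaling recovered from the authors' fold changes (1.02).

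**Figure D4:**
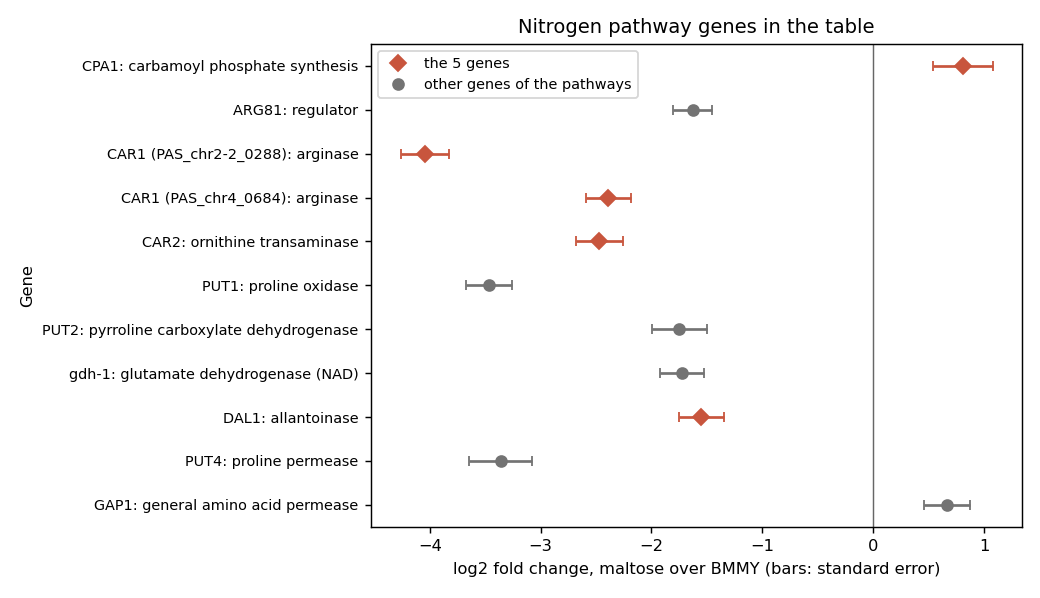
The log2 fold change, maltose over BMMY, of the 5 genes (diamonds) and of the other nitrogen pathway genes in the table (circles), with bars for the standard error from edgeR's fit to 3 libraries per medium. CPA1 and GAP1 lie above 0 and the others below it, from -1.55 for DAL1 to -4.04 for CAR1 (PAS_chr2-2_0288). The gene gdh-1 was not on the list. It was taken for its nearness to DAL1 in pattern, which favours a place below 0.

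The size of the fold changes depended on the scaling between libraries, while the direction of both arginase genes, CAR2 and DAL1 was the same under the 4 other scalings run. In the authors' deposited table the values on the log2 scale were -3.68 for the arginase gene PAS_chr2-2_0288, -2.03 for PAS_chr4_0684, -2.11 for CAR2, -1.20 for DAL1 and 1.16 for CPA1. The authors' deposited table gave values that exceeded the FPKM ratios, on the log2 scale, with a median difference of 0.37 over all 115 genes. Across the alternatives tried, PAS_chr2-2_0288 ran from -4.90 to -3.68, PAS_chr4_0684 from -3.24 to -2.03, CAR2 from -3.32 to -2.11, DAL1 from -2.44 to -1.20 and CPA1 from -0.0245 to 1.16.

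**Figure D5:**
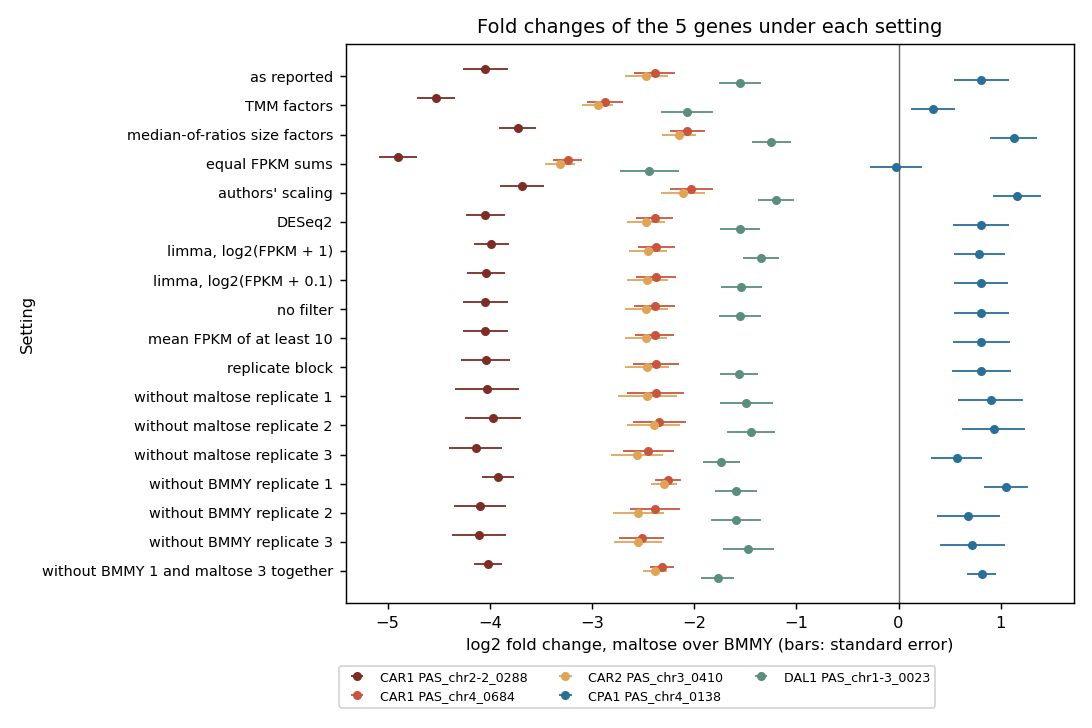
The log2 fold change, maltose over BMMY, of the 5 genes under each setting, with bars for the standard error. Both arginase genes, CAR2 and DAL1 stay below 0 in every setting shown in which they were fitted, and CPA1 lies above 0 except with equal FPKM sums, where it is at -0.0245.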

How the data were processed

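RNA-seq libraries of 3 maltose and 3 BMMY samples were grouped by the sample labels. Per the labels' protocols, commercial kits served for RNA extraction and for isolating mRNA. The submitters' processing notes name CASAVA, HISAT2 2.2.1 and StringTie without roles. Build, annotation and strand setting: not given in the sources used here. Coordinates were therefore not used beyond the gene lengths and gene order of RefSeq assembly ASM2700v1. The deposited table holds whole-number read counts and FPKM per library, per the file headers, and the authors' deposited p-value and log2 fold change per gene, from a test that is not stated. The authors had selected the genes on these libraries.

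All 115 identifiers matched RefSeq assembly ASM2700v1 (5040 genes), used for gene lengths and gene order. The depth of a library was implied by its counts, its FPKM and the gene lengths, as a median over genes; for the 5 genes the deviation from that median was at most 0.21%. The counts were fitted with edgeR 4.0.16 (R 4.3.3) by quasi-likelihood, with group as the only term, library sizes set to the implied depths without TMM, a mean FPKM of at least 1, and Benjamini-Hochberg adjustment over 112 genes at 0.05. The standard error is the absolute log2 fold change divided by the square root of F. The fit was tested on simulated data. Alternatives used DESeq2 1.42.0 and limma 3.58.1 on log2(FPKM + 1), among others.

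The members and lists were chosen with earlier results of these data known. Genes named are the 5 members, table genes on a list of 65 symbols and 17 product words, and the 2 genes nearest in pattern to each member. LAS17, matched by the words proline-rich, was dropped after the match was seen. Planned comparisons of promoter and protein sequences were not made.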

Additional observations from a re-analysis of the deposited data

How the results depend on the processing

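The 4 genes called lower (CAR1 PAS_chr2-2_0288, CAR1 PAS_chr4_0684, CAR2 and DAL1) kept that call and direction under every alternative that held them; with a mean FPKM of at least 10, DAL1 and ARG81 were left out, so that 3 members and 3 other pathway genes were called lower. CPA1 was the 1 member called higher and GAP1 the 1 other pathway gene: with TMM factors and with equal FPKM sums 0 members and 0 other pathway genes were called higher, and leaving out each library in turn gave 0 to 1 for both. With equal FPKM sums the log2 fold change of CPA1 was -0.0245 and that of GAP1 -0.20; that scaling takes out part of any rise by construction, since the listed genes held a larger share of the depth with maltose. The median over genes shifted by -0.49 with TMM factors, 0.32 with median-of-ratios size factors, -0.86 with equal FPKM sums and 0.36 with the authors' scaling, recovered from their fold changes to within 0.0034 on the log2 scale over 92 genes. Over all genes tested, 56 were called lower and 49 higher; the higher calls were 13 with TMM factors, 7 with equal FPKM sums and 29 without BMMY replicate 2, and the lower calls 31 with a mean FPKM of at least 10. With DESeq2 54 were higher, and with the median-of-ratios factors, the authors' scaling or limma 56. Leaving out BMMY replicate 1 and maltose replicate 3 together was added after seeing the data. No sign of pairing by replicate number was seen: deviations from the group means correlated at -0.15, -0.02 and 0.04 over 112 genes for numbers 1, 2 and 3. Unlike numbers correlated at -0.14 to 0.22. With 3 libraries per group, these values cannot settle whether the libraries were paired. With a replicate block CPA1 was at 0.81, and 4 members were called lower and 1 higher, as without it.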

Other observations

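In the gene order of RefSeq assembly ASM2700v1, the arginase gene PAS_chr4_0684 lies close to 2 other genes of the table. PAS_chr4_0687, which has no name, is 2 genes away and had 682 ± 38.5 FPKM with maltose and 341 ± 72.1 FPKM in BMMY (SD, n = 3 each). SFC1 (PAS_chr4_0688), annotated as the mitochondrial succinate-fumarate transporter, is 3 genes away and had 118 ± 7.03 FPKM with maltose and 322 ± 149.4 FPKM in BMMY. Near DAL1, the unnamed PAS_chr1-3_0290 and PAS_chr1-3_0020, 3 and 4 genes away, were 1.77-fold and 1.68-fold higher with maltose in mean FPKM, while DAL1 was lower. No gene of the table lay within 5 genes of CAR2, CPA1 or the arginase gene PAS_chr2-2_0288. These neighbours were looked up after the values were seen, and no relation between them was tested.

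In the deposited annotation, the term arginine metabolic process was given to 2 genes of the table, the arginase gene PAS_chr4_0684, which was lower with maltose, and CPA1, which was higher. Arginine and proline metabolism was given to 3 genes, PAS_chr4_0684 and CAR2, both lower, and ALD5, which was higher and is also among the genes nearest to CPA1 in pattern. The arginase gene PAS_chr2-2_0288, with the lowest log2 fold change of the table, carried neither term.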
